A study of Homo sapiens with 6 samples.

Results

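HOX genes encode homeodomain transcription factors that give cells their position along the axis of the embryo. In humans they lie in 4 clusters, HOXA, HOXB, HOXC and HOXD, on chromosomes 7, 17, 12 and 2, and members with the same number in different clusters form a paralogous group, numbered 1 to 13. The set described here holds the 39 protein-coding rows, of 58735 rows in the deposited gene table, whose symbol is one of these cluster names followed by a number only. Within a cluster the genes are ordered so that low numbers are used in anterior and high numbers in posterior parts of the body. The HOX proteins bind DNA together with PBX and MEIS proteins of the TALE homeodomain class, and Polycomb and trithorax (MLL) complexes hold clusters silent or active. In the Müllerian duct, the embryonic source of the oviduct, uterus and upper vagina, HOXA9, HOXA10, HOXA11 and HOXA13 mark successive segments, and HOX genes of this type are also transcribed in epithelial ovarian cancers.

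RNA of SKOV3ip1 cells was sequenced after transfection with siRNA against BARD1 (3 libraries) or with control siRNA (3 libraries). Both groups received 2 µg of siRNA with a lipid reagent for 48 h and carry the genotype label WT. SKOV3ip1 is an established human ovarian adenocarcinoma line. The source field names tumors, whereas the protocols describe cells cultured in plates, and libraries were made from poly(A)-selected RNA. BARD1 is the partner of BRCA1 in a nuclear ubiquitin ligase, and the series asks about its silencing and pathways of tumour angiogenesis. The titles number the 3 samples of each group as biological replicates, so the p-values rest on the spread among these cultures.

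The libraries held 16621108 to 17743404 counts, and 1 normalised CPM (counts scaled to a common library size with TMM factors) stood for 16.2 to 18.0 reads. BARD1 had 96, 110 and 169 counts with BARD1 siRNA against 805, 644 and 887 counts with control siRNA, which was 5.98-fold lower (log2 fold change −2.58 ± 0.14 SE, edgeR adjusted p = 1.21e-15). Of the ovarian epithelial markers, ERBB2, the keratins KRT7, KRT8, KRT18 and KRT19, PAX8, EPCAM and MSLN were expressed in both groups, while WT1 and MUC16 were too low to test. The 10 markers summed to 4405 to 4520 CPM with BARD1 siRNA and 4307 to 4702 CPM with control siRNA. Of the 8 tested 2 rose and 4 fell at an edgeR adjusted p under 0.05 (75.0% called, against 42.3% of all tested genes). The similar sums thus held moves in both directions. KRT7 stood at 134 CPM with BARD1 siRNA against 264 CPM with control siRNA, and PAX8 at 589 against 349.8 CPM. The 6 leukocyte markers summed to at most 0.308 CPM with BARD1 siRNA and 1.25 CPM with control siRNA, with PTPRC, CD3E, LYZ and CD68 at 0 in all libraries. The 5 endothelial markers reached at most 0.369 and 0.968 CPM in those groups, and the 6 fibroblast markers lay at 16.8 to 22.2 CPM with BARD1 siRNA and 26.1 to 26.9 CPM with control siRNA. The part of these fibroblast genes, mainly COL3A1, in the values below was not tested.

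Summed HOX transcripts were lower in cells given BARD1 siRNA than in control cells, and the libraries of the groups did not overlap. The 39 genes together made up 522, 523 and 523 CPM in the BARD1 siRNA libraries and 625, 672 and 623 CPM in the control siRNA libraries, a ratio of 0.816 between the group means. Of the 39 genes, 26 had enough counts for the test and 13 did not. Among the tested genes 11 fell and 1 rose at an edgeR adjusted p under 0.05, which is 46.2% of them, while 42.3% of all 15271 genes tested were called. In the lower direction the share was 42.3% of the tested HOX genes, and 20.3% of all tested genes. In the higher direction the call went to HOXB9 alone of the 26, and to 22.0% of all tested genes. The median log2 fold change was −0.37 over the tested HOX genes and −0.01 over all tested genes. With upper-quartile scaling 12 HOX genes fell and 1 rose, and the calls over all genes moved to 2815 higher and 3975 lower, against 3355 higher and 3107 lower with TMM scaling.

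The groups were fully separated, with all 3 BARD1 siRNA libraries below all 3 control libraries, for 13 of the 26 tested genes, and for 24.7% of all tested genes. HOXB9 and HOXA10 were separated the other way round, as were 25.8% of all tested genes. Of the 12 genes called, HOXA9 was the one whose libraries overlapped between the groups. Separated but not past the threshold were HOXA5, HOXB13, HOXC10 and HOXA10.

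**Figure D1:**
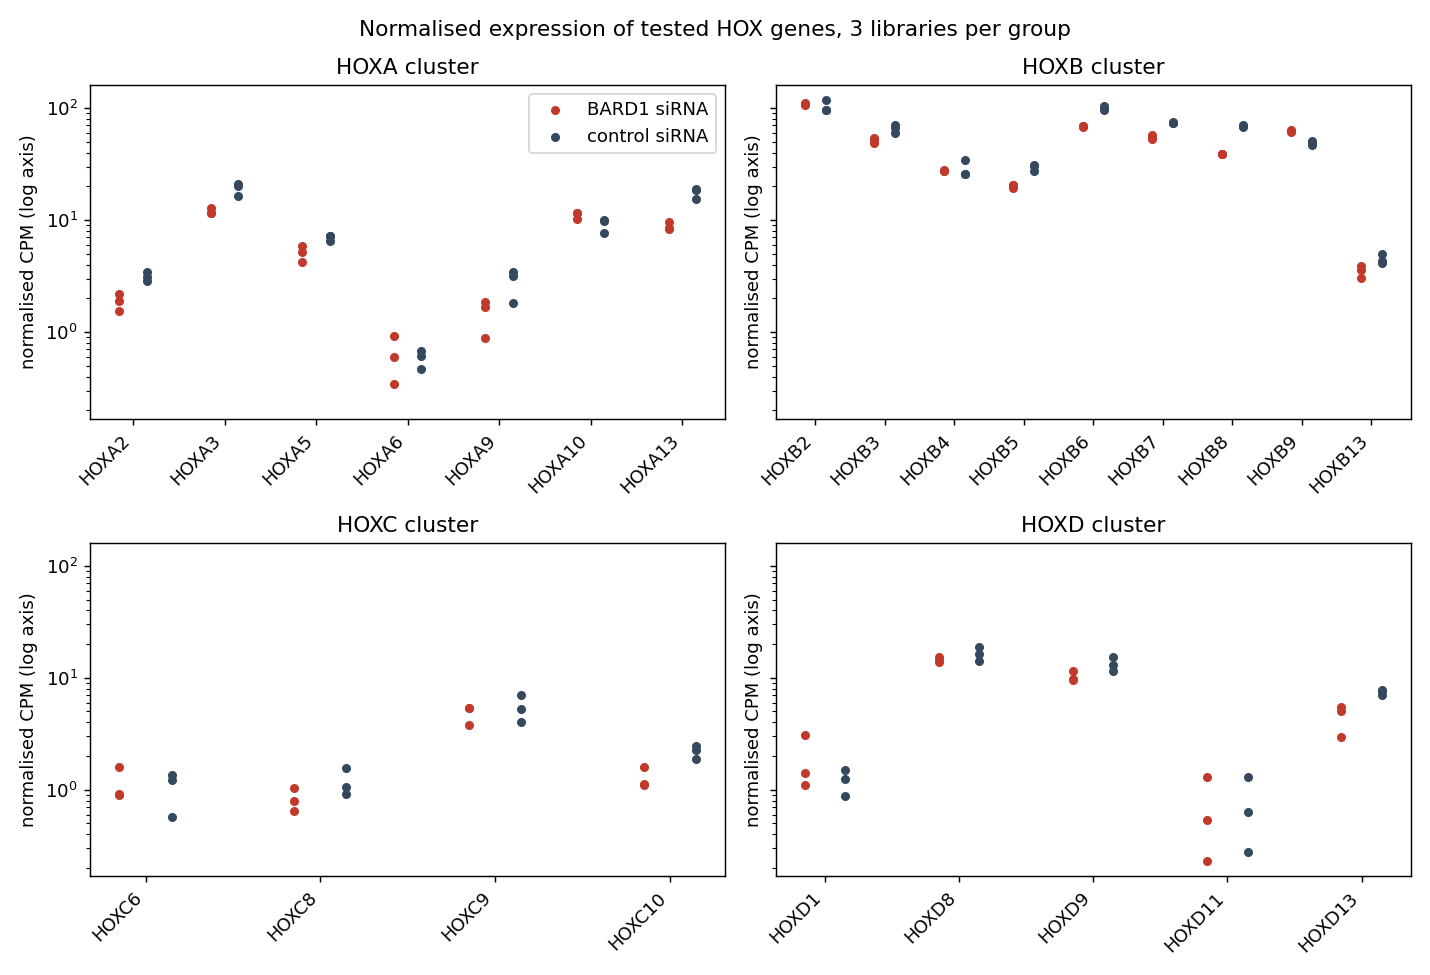
Normalised CPM (log axis) of 25 tested HOX genes in each of the 6 libraries, in 1 panel per cluster, with BARD1 siRNA (red) left of control siRNA (dark blue). HOXB8 lies at 39.0 CPM against 69.3 CPM on average with no overlap, whereas HOXB9 lies higher with BARD1 siRNA, at 62.7 against 48.9 CPM.

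Most HOX reads of these cells came from the HOXB cluster. It took 83.4% of HOX CPM with BARD1 siRNA and 82.0% with control siRNA. HOXA followed with 8.81% and 10.1%, HOXD with 6.14% and 6.23%, and HOXC with 1.63% and 1.64% in the same groups. Every cluster had a lower mean sum with BARD1 siRNA. HOXB summed to 436 ± 3.37 CPM against 525 ± 19.6 CPM with control siRNA, and HOXA to 46.1 ± 1.42 against 64.9 ± 4.32 CPM (SD, n = 3 each). For HOXD the sums were 32.1 ± 2.65 CPM with BARD1 siRNA and 39.9 ± 4.29 CPM with control siRNA, again without overlap of the groups. The HOXC sums of 6.77, 8.53 and 10.3 CPM with BARD1 siRNA overlapped those of 8.65, 11.9 and 10.9 CPM with control siRNA. In bulk RNA, a change in RNA per cell and a change in the share of cells that express a gene cannot be told apart.

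Levels of different genes were compared after division by exon length, as CPM per kilobase (kb). In control cells HOXB7 was highest at 48.7 ± 0.471, ahead of HOXB2 at 44.2 ± 5.36 (SD, n = 3 each), and their library ranges overlapped. HOXB6 at 38.5, HOXB8 at 33.8, HOXB9 at 18.9 and HOXB5 at 14.6 CPM per kb followed, and each of these steps exceeded the library ranges. HOXB3, HOXB4, HOXD9 and HOXD8 came next, at 8.84 to 6.23 CPM per kb, and each overlapped its neighbour in that order. All other tested genes stood at 4.48 CPM per kb or less in control cells. With BARD1 siRNA the order at the top differed: HOXB2 stood first at 46.5 ± 1.05 CPM per kb, HOXB7 second at 35.8 ± 1.42, and HOXB9 at 24.3 ± 0.578 stood above HOXB8 at 19.0 ± 0.103.

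Within HOXB, 5 of the 9 tested genes fell and 1 rose, beside 20.3% and 22.0% of all tested genes. HOXB3, HOXB5, HOXB6, HOXB7 and HOXB8 were the ones that fell, HOXB9 rose, and HOXB2, HOXB4 and HOXB13 did not pass the threshold. HOXB8, a gene of the middle of the cluster that in mouse restrains myeloid differentiation, had 636, 661 and 675 counts with BARD1 siRNA and 1240, 1163 and 1242 counts with control siRNA. All 3 silenced libraries lay far under the lowest control library. Its level of 39.0 ± 0.211 CPM against 69.3 ± 1.20 CPM was 1.77-fold lower (SD, n = 3; log2 fold change −0.83 with SE 0.08 and edgeR adjusted p = 1.66e-13). The gene lies on GRCh38 chromosome 17 from 48611377 to 48614939, on the minus strand as the whole HOXB cluster does, and shares no exon base with another annotated gene.

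HOXB9, the next gene toward the posterior end (48621159 to 48626356), was the exception. A factor of thoracic identity and of mammary gland development in mouse, it had 1004, 1088 and 1078 counts with BARD1 siRNA and 868, 790 and 918 counts with control siRNA. The groups did not overlap, and the increase was 1.28-fold (62.7 ± 1.49 against 48.9 ± 2.31 CPM, SD, n = 3; log2 fold change 0.36 with SE 0.07 and edgeR adjusted p = 7.69e-05). HOXB8 had 0.633, 0.608 and 0.626 counts per HOXB9 count in the silenced libraries, against 1.43, 1.47 and 1.35 in control libraries. Per kb of exon, too, the higher of these adjacent genes was HOXB9 with BARD1 siRNA and HOXB8 with control siRNA.

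HOXB5, HOXB6 and HOXB7 fell by 0.56, 0.55 and 0.44 on the log2 scale. HOXB6, expressed in lateral mesoderm and early blood cells in mouse, had 1096, 1163 and 1206 counts with BARD1 siRNA and 1772, 1770 and 1734 with control siRNA (1.46-fold lower, SE of the log2 fold change 0.06 and edgeR adjusted p = 2.89e-10). HOXB7, which raises basic fibroblast growth factor when overexpressed in breast cancer cells, had 872, 965 and 926 counts with BARD1 siRNA and 1302, 1258 and 1356 with control siRNA. The level was 1.36-fold lower (SE of the log2 fold change 0.07 and edgeR adjusted p = 5.00e-07). Neither gene showed any overlap between the groups. HOXB5, a factor of enteric neural crest and lung in mouse, fell 1.47-fold, from fewer reads, with 331, 330 and 359 counts in silenced and 487, 519 and 561 counts in control libraries (edgeR adjusted p = 7.68e-06). HOXB3, a hindbrain gene in mouse, fell 1.29-fold to 51.2 ± 2.72 CPM, against 65.9 ± 4.98 CPM (SD, n = 3; edgeR adjusted p = 6.99e-05). HOXB6 shares 32.9% of its annotated exon bases with other genes, mostly HOXB3 and an antisense RNA, so part of its reads and those of HOXB3 cannot be assigned with certainty.

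For HOXB2, HOXB4 and HOXB13 no change was called. HOXB2, a hindbrain gene, had 1811, 1802 and 1879 counts with BARD1 siRNA and 1678, 2004 and 1739 with control siRNA. The groups overlapped, and the log2 fold change of 0.08 had an interval of −0.06 to 0.21 (2 SE either side; edgeR adjusted p = 0.379). Without control siRNA replicate 2 its value was 0.18 and the adjusted p 0.0131. HOXB4, which expands blood stem cells when overexpressed, stood at 27.6 ± 0.193 CPM with BARD1 siRNA and 28.7 ± 5.01 CPM with control siRNA (interval −0.27 to 0.15). HOXB13, a prostate and tail bud gene far from the others, averaged 3.49 ± 0.420 CPM with BARD1 siRNA and 4.47 ± 0.451 CPM with control siRNA, with no overlap but an edgeR adjusted p of 0.235. HOXB1 had no count anywhere. A count of 0 still permits 3 counts over the libraries of a group, or 0.0594 CPM with BARD1 siRNA and 0.0570 CPM with control siRNA, by counting error alone.

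**Figure D2:**
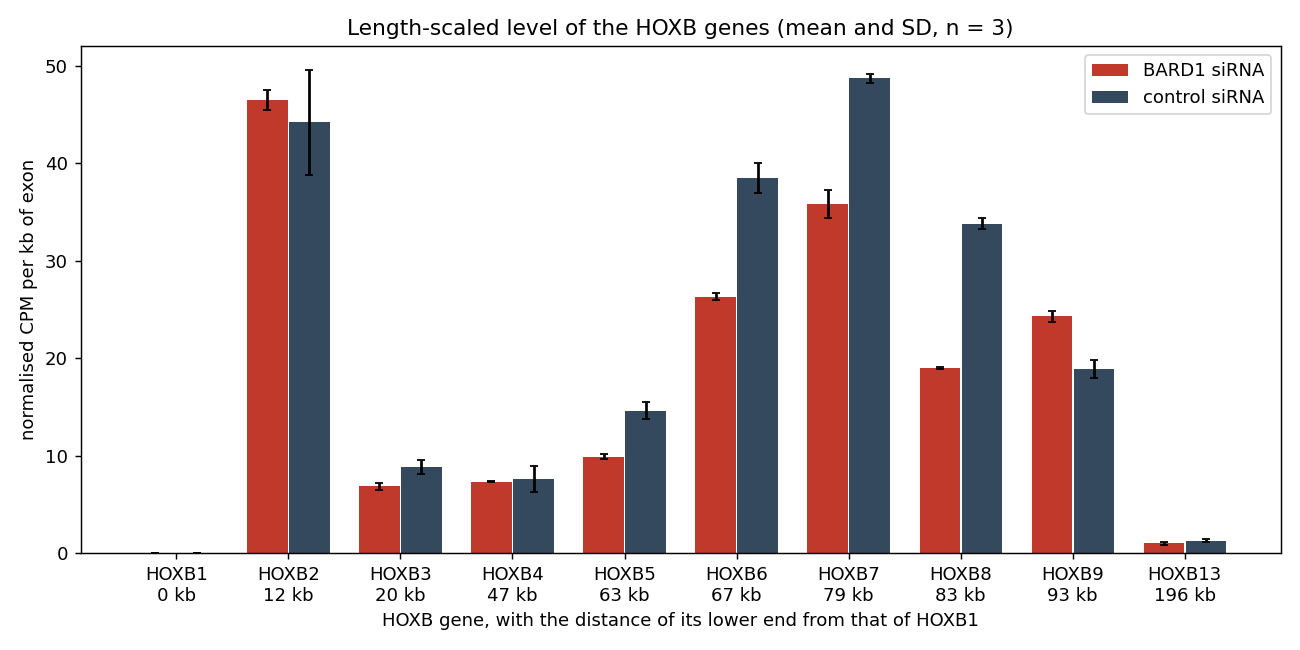
Length-scaled level (normalised CPM per kb of exon; bars are means, whiskers SD, n = 3) of the 10 HOXB genes, ordered by their lower end, with BARD1 siRNA (red) left of control siRNA (dark blue) and, under each name, the distance in kb of the lower end of the gene from that of HOXB1. The genes HOXB5 to HOXB8 are lower with BARD1 siRNA, HOXB2 and HOXB4 are near their control level, and HOXB9 is higher at 24.3 against 18.9 CPM per kb.

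In the HOXA cluster 4 of 8 tested genes fell and none rose, where 20.3% of all tested genes fell and 22.0% rose. By edgeR none of the 8 rose at an unadjusted p under 0.05 either, nor by DESeq2 or limma-voom after adjustment. HOXA13, the most posterior gene of the cluster, shapes the digits and the lower genital tract. It had 157, 140 and 148 counts with BARD1 siRNA and 270, 322 and 334 counts with control siRNA. The silenced libraries stood at about the same level as one another and clear of all controls, 2.00-fold lower on average (8.82 ± 0.738 against 17.6 ± 1.94 CPM, SD, n = 3; log2 fold change −1.0 with SE 0.14 and edgeR adjusted p = 2.73e-08). HOXA3, a pharyngeal arch gene required for the thymus and parathyroid in mouse, had 187, 195 and 222 counts with BARD1 siRNA and 356, 360 and 298 with control siRNA, 1.62-fold lower (log2 fold change −0.69 with SE 0.13 and edgeR adjusted p = 1.03e-05). HOXA3 shares 17.9% of its exon bases with other annotated genes.

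The remaining HOXA calls rested on few reads. HOXA2, a gene of the hindbrain and arches, had 25, 37 and 33 counts with BARD1 siRNA and 50, 58 and 56 with control siRNA, and passed narrowly (log2 fold change −0.73 with SE 0.30 and edgeR adjusted p = 0.0481). It lost the call under 9 of 16 alternatives, among them leaving out any control library or BARD1 siRNA replicates 1 or 3 (adjusted p 0.0597 to 0.149). HOXA9, the Müllerian gene of the oviduct, had 30, 15 and 29 counts with BARD1 siRNA and 32, 59 and 57 with control siRNA. Control siRNA replicate 1 lay close to the silenced libraries, so that the groups overlapped in spite of the call (log2 fold change −0.94 with SE 0.35 and edgeR adjusted p = 0.0250). Its adjusted p was 0.130 without control siRNA replicate 2, 0.0805 without control siRNA replicate 3 and 0.148 without BARD1 siRNA replicate 2, and 27.0% of its exon bases are shared.

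HOXA10, the uterine gene of the Müllerian series, had a higher mean with BARD1 siRNA. It shares 26.3% of its exon bases with other annotated genes. Its counts were 188, 172 and 202 with BARD1 siRNA and 136, 166 and 180 with control siRNA, with no overlap after normalisation, and the log2 fold change of 0.28 did not pass (interval −0.03 to 0.59, edgeR adjusted p = 0.141). HOXA5, known from lung development in mouse, had 69, 98 and 90 counts with BARD1 siRNA and 126, 124 and 118 with control siRNA, at the edge of the threshold (log2 fold change −0.46 with SE 0.20 and edgeR adjusted p = 0.0530), and passed under 6 alternatives. HOXA6 averaged 0.620 CPM with BARD1 siRNA and 0.588 CPM with control siRNA, and its log2 fold change was poorly resolved at this depth (interval −1.09 to 1.22). Other annotated genes share 40.1% of its exon bases. HOXA11 and HOXA7 had 17 and 8 counts over the BARD1 siRNA libraries and 10 and 6 counts over the control libraries, and HOXA4 had none anywhere.

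**Figure D3:**
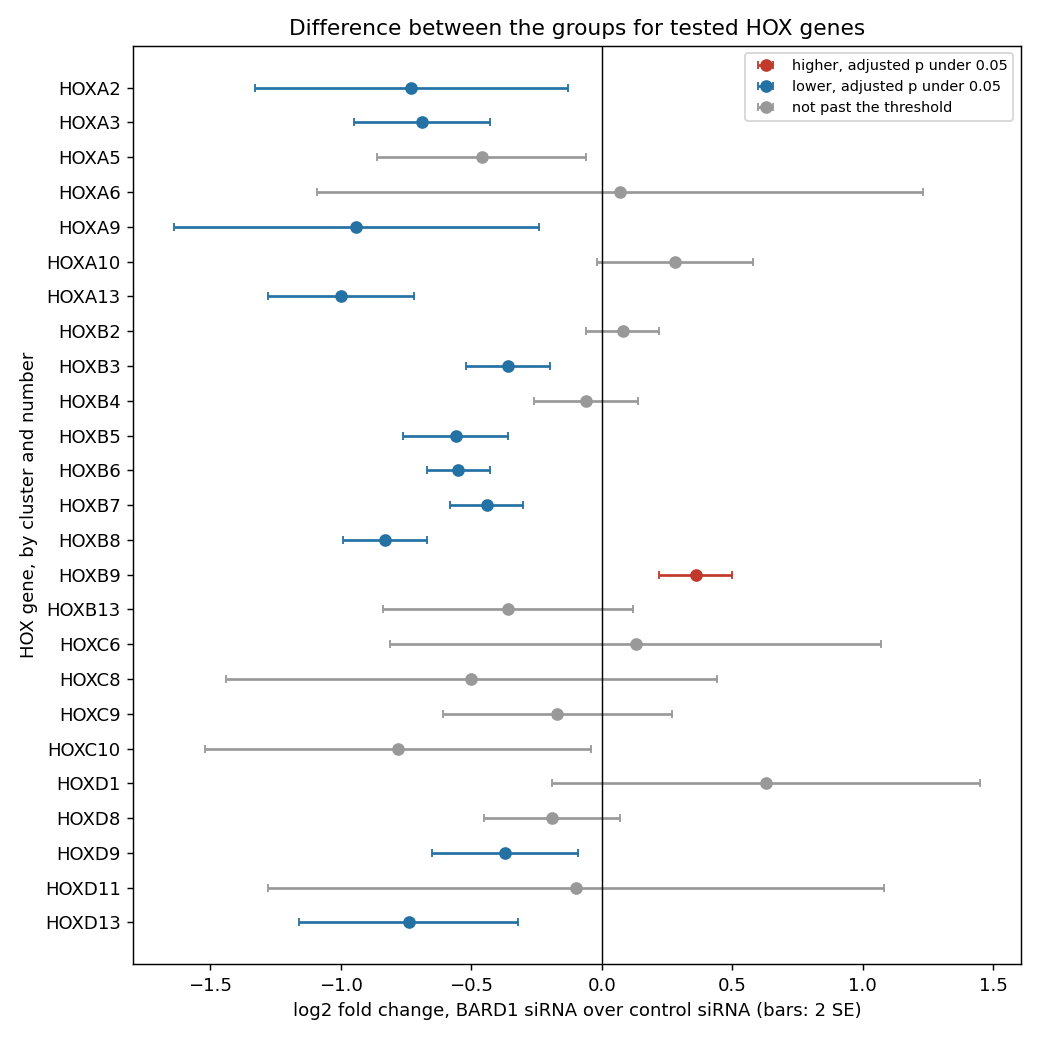
Log2 fold change of BARD1 siRNA over control siRNA for 25 tested HOX genes, ordered by cluster and number, with bars of 2 SE; blue marks genes that fell, red the gene that rose, grey those not past the threshold. The called genes fall between −0.36 for HOXB3 and −1.0 for HOXA13 on the lower side, and HOXB9 stands at 0.36.

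HOXD held 2 called genes of 5 tested, both lower, and none rose by edgeR at an unadjusted p under 0.05. Over all tested genes 42.3% were called, 20.3% of them lower and 22.0% higher as shares of those tested. HOXD13, the paralogue of HOXA13 and like it a gene of digits and genitalia, had 48, 93 and 87 counts with BARD1 siRNA and 136, 131 and 127 with control siRNA. BARD1 siRNA replicate 1 was the lowest library, and all 3 lay under the controls (1.66-fold lower, log2 fold change −0.74 with SE 0.21 and edgeR adjusted p = 0.00308). Without that replicate the value was −0.51 and the adjusted p 0.0503. HOXD9, a limb and trunk gene, had 155, 192 and 171 counts with BARD1 siRNA and 229, 259 and 207 with control siRNA (log2 fold change −0.37 with SE 0.14 and edgeR adjusted p = 0.0354), and lost the call under 6 alternatives, with DESeq2 at 0.0563 and without any of 4 libraries at 0.0643 to 0.205. HOXD8, its neighbour, stood at 14.3 ± 0.747 CPM with BARD1 siRNA and 16.4 ± 2.36 CPM with control siRNA, which overlapped (edgeR adjusted p = 0.234). HOXD1 had 18, 24 and 54 counts with BARD1 siRNA and 22, 15 and 27 with control siRNA. The high value of 1 silenced library set its log2 fold change of 0.63, which was 0.06 without BARD1 siRNA replicate 3, and 58.1% of its exon bases are shared with other genes. HOXD11 had 34 and 38 counts over the silenced and the control libraries.

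No HOXC gene passed the threshold among 4 tested, beside 42.3% of all tested genes, and this cluster had the fewest reads. HOXC10, a gene of hindlimb and lumbar levels in mouse, came closest, with 18, 19 and 28 counts with BARD1 siRNA against 43, 32 and 41 with control siRNA (log2 fold change −0.78 with SE 0.37 and unadjusted p = 0.0403, edgeR adjusted p = 0.0857). HOXC9 averaged 4.83 ± 0.931 CPM with BARD1 siRNA and 5.45 ± 1.51 CPM with control siRNA, and HOXC8 0.829 ± 0.193 against 1.17 ± 0.337 CPM (SD, n = 3 each), both with overlap. HOXC6 stood at 1.14 ± 0.406 CPM with BARD1 siRNA and 1.05 ± 0.419 CPM with control siRNA. HOXC11 was too low to test, with 0, 2 and 0 counts in silenced and 4, 5 and 3 counts in control libraries. The same 4 genes gave 0 calls with limma-voom and DESeq2, and 1 of them had an unadjusted p under 0.05 in edgeR.

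The 13 untested HOX genes were HOXA4, HOXA7, HOXA11, HOXB1, HOXC4, HOXC5, HOXC11, HOXC12, HOXC13, HOXD3, HOXD4, HOXD10 and HOXD12. None exceeded 11 counts in a library, and they held 167 counts together out of 60091 HOX counts over the 6 libraries. HOXA4, HOXB1 and HOXC12 were at 0 in all libraries. Over the BARD1 siRNA libraries HOXC4 had 14, HOXC5 5, HOXC13 2, HOXD3 9, HOXD4 4, HOXD10 12 and HOXD12 0 counts. Over the control libraries the counts were 13 for HOXC4, 2 for HOXC5, 6 for HOXC13, 19 for HOXD3, 10 for HOXD4, 14 for HOXD10 and 2 for HOXD12. No library of these genes was high enough to say whether they differed between the groups. By paralogous group, group 13 had 2 lower of 3 tested genes (HOXA13 and HOXD13), group 3 had 2 lower of 2 (HOXA3 and HOXB3), and group 9 split into 2 lower (HOXA9 and HOXD9), 1 higher (HOXB9) and 1 not called (HOXC9). Groups 4, 10 and 11 had no called gene among 1, 2 and 1 tested, and group 12 had none to test. No group had more than 4 tested genes, and 42.3% of all tested genes were called, so these counts do not set any group apart.

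The sequences before HOXA13, HOXD13 and HOXA3 are shown because these are called genes of both the HOXA and the HOXD cluster for which RefSeq (GRCh38.p14) gives a start. Each window runs from 250 bases before to 50 bases after the start, 5′ to 3′ on the strand of the gene. Capitals mark the CCAAT box, searched as CCAAT on both strands. HOXA13 is read from chr7:27200042-27200341 on the minus strand, HOXD13 from chr2:176092471-176092770 on the plus strand and HOXA3, the outermost of its 7 listed starts, from chr7:27152534-27152833 on the minus strand.
HOXA13: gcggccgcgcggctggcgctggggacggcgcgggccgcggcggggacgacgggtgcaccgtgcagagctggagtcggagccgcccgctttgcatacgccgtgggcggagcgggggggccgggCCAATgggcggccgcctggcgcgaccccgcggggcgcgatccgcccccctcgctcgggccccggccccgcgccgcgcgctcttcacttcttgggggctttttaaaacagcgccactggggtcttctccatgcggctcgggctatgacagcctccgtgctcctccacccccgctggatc
HOXD13: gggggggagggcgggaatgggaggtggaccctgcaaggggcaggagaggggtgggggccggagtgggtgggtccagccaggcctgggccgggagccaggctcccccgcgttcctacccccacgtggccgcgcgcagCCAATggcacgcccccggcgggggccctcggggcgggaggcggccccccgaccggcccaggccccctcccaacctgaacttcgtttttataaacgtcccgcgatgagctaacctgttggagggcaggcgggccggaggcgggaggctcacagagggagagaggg
HOXA3: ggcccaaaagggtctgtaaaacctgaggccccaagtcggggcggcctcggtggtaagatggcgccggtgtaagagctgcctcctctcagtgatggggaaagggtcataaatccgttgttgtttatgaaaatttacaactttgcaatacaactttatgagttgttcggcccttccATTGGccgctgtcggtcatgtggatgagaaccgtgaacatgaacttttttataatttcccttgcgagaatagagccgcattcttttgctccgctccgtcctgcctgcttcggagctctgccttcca
Each window holds 1 CCAAT box. The HOXA13 window is the richest in CpG dinucleotides, with 44, against 24 for HOXD13, 15 for HOXA3 and a median of 14 over all 35116 windows of the table. Of the HOX genes, 20 had an entry, in 27 windows, and their median was 22. A CCAAT box stood in 66.7% of the HOX windows and in 34.6% of all windows. The homeodomain core TAAT, on either strand, stood in 77.8% of HOX windows and 50.2% of all, the TATA box TATAAA in 18.5% and 11.5%, and the PBX-HOX composite TGATNNAT in 11.1% and 7.40%. The shares count windows and not genes, and 7 of the 27 HOX windows are starts of HOXA3. Such matches describe the letters only.

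Besides protein-coding members, 59 other rows of the table lie within the 4 clusters, mostly antisense RNAs and small RNAs. Of these 10 were tested, 2 fell and none rose by edgeR, also at an unadjusted p under 0.05. The 2 that fell are 20.0% of the tested rows, near the 20.3% of all tested genes that fell, while 22.0% of all rose. HOXB-AS3, antisense to the stretch from HOXB3 to HOXB6, had 186, 230 and 205 counts with BARD1 siRNA and 437, 430 and 344 with control siRNA, 1.88-fold lower (log2 fold change −0.91 with SE 0.12 and edgeR adjusted p = 2.33e-08). HOXA-AS2, antisense within the span of HOXA3, had 55, 42 and 41 counts with BARD1 siRNA and 118, 95 and 70 with control siRNA (log2 fold change −0.98 with SE 0.25 and edgeR adjusted p = 0.00111). Both lay below every control library, next to sense genes that also fell, and no source used here gives the strand setting. Reads of such a pair therefore cannot be told apart where their exons overlap. HOTAIRM1, an antisense RNA of the HOXA cluster, stood at 5.98 CPM with BARD1 siRNA and 5.94 CPM with control siRNA, and HAGLR of the HOXD cluster at 10.1 and 10.5 CPM. HOTAIR, the HOXC antisense RNA that recruits Polycomb to HOXD in other cells, had 0 counts with BARD1 siRNA and 3 with control siRNA over the group. The read-through row AC004080.3, which overlaps HOXA9 and HOXA10, had no count.

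The clusters also encode the microRNAs miR-10 and miR-196, whose known targets include HOX mRNAs. Their mature sequences (RefSeq, GRCh38.p14, 5′ to 3′) are shown with the seed, bases 2 to 8, in capitals, because miR-196a-1 lies between HOXB9 and HOXB13, beside the gene that rose and inside the long annotated span of HOXB7, and miR-10a at the start of HOXB4. They are read from chr17:48632532-48632553 (miR-196a-5p), chr7:27169528-27169549 (miR-196b-5p) and chr17:48579904-48579926 (miR-10a-5p), all on the minus strand.
hsa-miR-196a-5p: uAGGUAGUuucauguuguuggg
hsa-miR-196b-5p: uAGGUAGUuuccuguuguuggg
hsa-miR-10a-5p: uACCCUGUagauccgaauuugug
The miR-196 sequences share 1 seed. Poly(A)-selected libraries do not measure mature microRNAs. The row of the miR-196a-1 hairpin had 9, 3 and 1 counts with BARD1 siRNA and 4, 9 and 6 with control siRNA, and those of miR-10a and miR-196b had none.

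Of the DNA-binding partners of HOX proteins, 2 of 7 tested TALE genes rose and 2 fell (median −0.02). That is 57.1% called, against 42.3% of all tested genes. MEIS2 fell 1.51-fold, with 167, 176 and 147 counts with BARD1 siRNA against 276, 230 and 266 with control siRNA (log2 fold change −0.59 with SE 0.14 and edgeR adjusted p = 0.000463). MEIS1 went the other way, with 208, 212 and 223 counts against 134, 151 and 177 (log2 fold change 0.54 with SE 0.15 and edgeR adjusted p = 0.00256). PKNOX1, also called PREP1, fell by 0.29 and PBX2 rose by 0.27 on the log2 scale. Those smaller calls were not stable, since PKNOX1 had an adjusted p of 0.0620 without BARD1 siRNA replicate 3, and PBX2 0.0838 and 0.0529 without BARD1 siRNA replicates 2 and 3. PBX3 stood at 24.8 CPM with BARD1 siRNA against 25.7 CPM with control siRNA and did not pass. Among 13 HOX-like homeobox genes outside the clusters, such as the CDX and PDX1 genes, only MNX1 and GBX2 were tested. MNX1 fell 1.74-fold (8.06 against 14.0 CPM, edgeR adjusted p = 2.94e-05), and GBX2 rose by 0.64 with an adjusted p of 0.0485 that was lost under 12 of 16 alternatives.

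Polycomb genes, whose products silence HOX clusters, had 10 higher and 8 lower of 32 tested (median 0.08). That is 56.2% called, against 42.3% of all tested genes. With upper-quartile scaling the balance turned, to 7 higher and 11 lower. EZH2, a methyltransferase of Polycomb repressive complex 2, was lower at 64.5 CPM with BARD1 siRNA, against 102 CPM with control siRNA (log2 fold change −0.66 with SE 0.06 and edgeR adjusted p = 1.11e-12), and SUZ12, of the same complex, was lower at 112 CPM against 169.6 CPM (log2 fold change −0.60 with SE 0.06 and edgeR adjusted p = 1.82e-10). JARID2, an accessory subunit of that complex, rose to 129.7 CPM with BARD1 siRNA, against 50.7 CPM with control siRNA (log2 fold change 1.35 with SE 0.06 and edgeR adjusted p = 2.75e-24). PHC2, of Polycomb repressive complex 1, rose to 295 CPM against 139 CPM. MLL and trithorax genes had 7 higher, 3 lower and 10 not called of 20 tested (median 0.04), and 5 lower with upper-quartile scaling. For comparison, 42.3% of all tested genes were called, 22.0% higher and 20.3% lower. KDM6B, a demethylase of the Polycomb mark on histone H3, rose, with 49.0 CPM against 9.18 CPM (log2 fold change 2.42 with SE 0.11 and edgeR adjusted p = 4.89e-25). AFF4 and DOT1L, elongation and H3 methylation factors that act with MLL, rose by 0.57 and 0.53, and ASH2L, a core subunit of MLL complexes, was lower at −0.43 on the log2 scale. KMT2A and MEN1, which maintain HOX expression in blood cells, had log2 fold changes of −0.11 and −0.07 and did not pass.

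Retinoid genes were listed because retinoic acid switches on HOX clusters from their anterior end. Of 10 tested genes 4 rose and 3 fell (70.0% called, against 42.3% of all tested genes, median −0.03). CRABP2, which carries retinoic acid to its receptors, was 2.63-fold lower, with 2.43 CPM against 6.40 CPM (edgeR adjusted p = 2.28e-06), and DHRS3, a retinaldehyde reductase, fell by 1.01 on the log2 scale. CYP26B1, which breaks down retinoic acid, rose by 0.75 and the receptor gene RXRB by 0.44. The 3 protein-coding genes nearest each cluster on each side, 24 in all, had 4 higher and 8 lower of 20 tested (median −0.10). They lie 8978 (EVX2) to 1036688 (NFE2L2) bases from their cluster. Of those tested 60.0% were called, against 42.3% of all tested genes. Among these neighbours, as among the HOX genes, the share that fell was thus above the 20.3% of all tested genes. LNPK beside HOXD fell (34.6 against 51.9 CPM, log2 fold change −0.59 with SE 0.09 and edgeR adjusted p = 8.60e-08), as did CBX5 beside HOXC at −0.46 and ATP5MC1 beside HOXB at −0.43, while TAX1BP1 beside HOXA rose by 0.37. The other genes of the homeobox family in the table's own annotation had 10 higher and 10 lower of 59 tested (33.9% called, median 0.02).

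**Figure D4:**
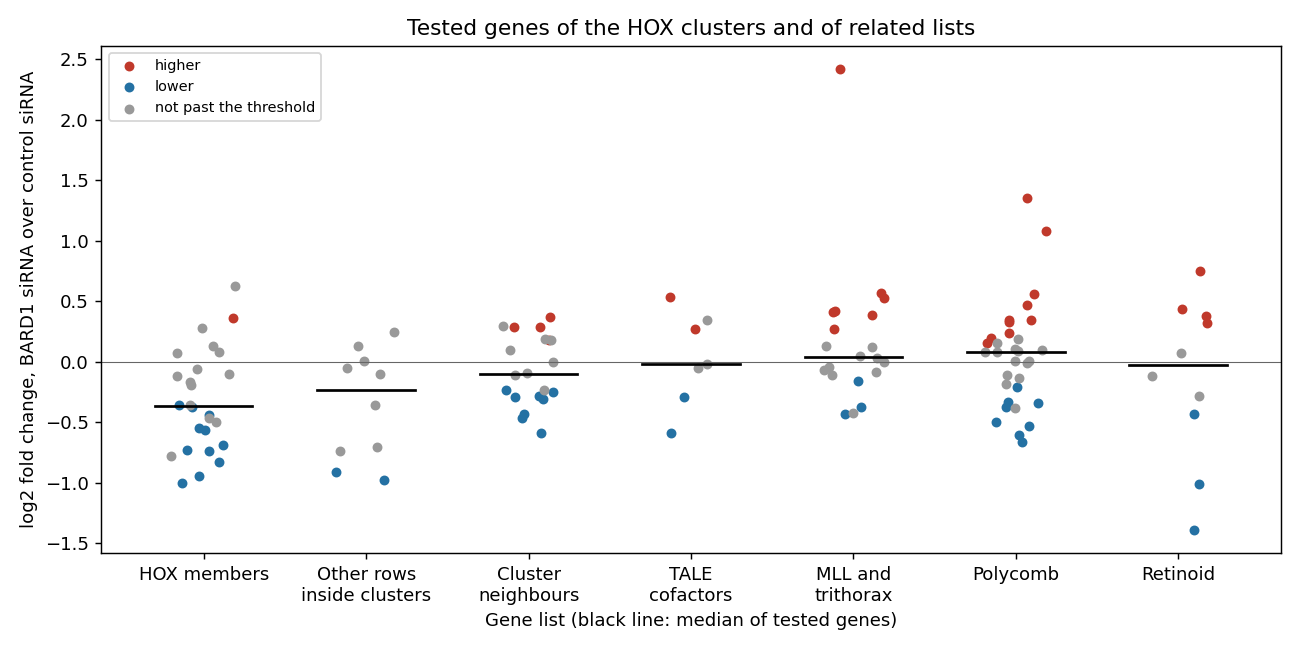
Log2 fold change of BARD1 siRNA over control siRNA for the tested genes of 7 lists (HOX members, other rows inside the clusters, neighbours, TALE cofactors, MLL and trithorax, Polycomb, retinoid); points are genes (blue fell, red rose, grey not past the threshold) and the black line is the list median. The HOX members have a median of −0.37, the other rows inside the clusters −0.23, and the other 5 lists plotted lie between −0.10 and 0.08.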

How the data were processed

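The authors deposited 1 table of raw gene counts for the 6 libraries, as whole-number counts per gene. HISAT2 and CASAVA and the builds GRCh38 and hg38 are named per the submitters' processing notes. No source used here gives their versions, the read counter, the annotation or whether strand was used. Start, end and exon length of the 39 HOX genes equal those of GENCODE 29. Counts were normalised with TMM factors. Genes passing filterByExpr (minimum count 10, minimum total 15) were tested with the robust quasi-likelihood test of edgeR 4.0.16 in R 4.3.3, with Benjamini-Hochberg adjustment over 15271 genes and a threshold of 0.05. The SE of a log2 fold change is its size divided by the root of the F statistic. Simulated data held 14843 genes after the same filter, among them 98 given a log2 change of 1 and 98 given a change of 0.5. Changed genes that the filter removed are not in the rates that follow. The fit found 72.4% and 56.1% of them, in that order, with 3.08% false calls. In the real data 42.3% of genes were called, a far larger share than was changed there. Whether those rates hold at the larger share was not tested. No 2 libraries of a group agreed within sampling noise (chi-square per degree of freedom at least 3.31). Alternatives used DESeq2 1.42.0 and limma 3.58.1. Intervals are 2 SE of the edgeR fit, and floors for a count of 0 cover counting error only. The HOX members and all gene lists were chosen with earlier results of these data known. Named list genes are up to 4 called genes per list with the largest change. HOTAIRM1, HAGLR, HOTAIR, the microRNA rows, PBX3, KMT2A and MEN1 were named after their values were seen. Some genes enter the counts, sums and medians but are not reported here by themselves.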

Additional observations from a re-analysis of the deposited data

How the results depend on the processing

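Across 16 alternatives 8 to 12 HOX genes were lower, and HOXA3, HOXA13, HOXB3 and HOXB5 to HOXB9 kept their calls in all of them. Leaving out 1 library at a time gave 8 to 11 lower and 1 to 2 higher HOX genes, 2 to 4 lower in HOXA, 1 to 2 higher in HOXB and 0 to 2 lower in HOXD. HOXD had 1 lower gene with DESeq2 and 1 with no filter. The HOX median was −0.43 with upper-quartile scaling, −0.43 with library size only, and −0.43 to −0.32 with 1 library left out. Those 2 scalings moved the median of all genes to −0.07, and gave 2815 and 2852 higher and 3975 and 3906 lower genes over all. They also gave 5 lower MLL and trithorax genes, 7 higher and 11 lower Polycomb genes, and 2 higher neighbours. The TALE list had 1 higher gene with upper-quartile scaling, and 1 to 2 higher and 1 to 2 lower with 1 library left out. The HOX-like genes had 0 higher with upper-quartile scaling, library size only, DESeq2, limma-voom, no filter, 1 CPM in 3 libraries, the replicate block and the fit that was not robust, and 0 to 1 with 1 library left out. Retinoid genes had 3 to 5 lower with 1 library left out. Testing protein-coding genes only left 0 lower rows among the other rows, since antisense RNAs were not tested. The cause of the other shifts was not tested.

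Signs turned for 5 of the HOX genes described that were not called. With 1 library left out their ranges were −0.33 to 0.36 for HOXA6, −0.14 to 0.09 for HOXB4, −0.21 to 0.35 for HOXC6, −0.35 to 0.05 for HOXC9 and −0.93 to 0.58 for HOXD11, and HOXA6 also turned with limma-voom (−0.02). Scaling length-corrected levels to a fixed sum moved 1 of 25 ratios beyond the replicate spread, that of HOXB8 to 0.542. Replicate numbers did not pair the libraries: deviations correlated at −0.00906, −0.0149 and −0.0218, and 0 libraries correlated best with their own number. With the replicate block 10 HOX genes were lower and 1 higher, and over all genes 3122 were lower and 3390 higher. HOXA2 lost its call there (edgeR adjusted p = 0.0537). The SE of the log2 fold change ran from 0.0638 to 0.594 over the tested HOX genes, and was 0.30 for HOXA2, 0.35 for HOXA9 and 0.37 for HOXC10, which had at most 59 counts in a library.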

Other observations

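Some neighbours of the HOX clusters belong to families with a copy beside several clusters, and they are given here after their values were seen. Here beside means among the 3 nearest protein-coding genes on a side, which can be far from the cluster. Of the 20 neighbours tested 8 fell and 4 rose, where 20.3% of all tested genes fell and 22.0% rose. The HP1 chromatin protein genes CBX3 beside HOXA, CBX1 beside HOXB and CBX5 beside HOXC all fell, with log2 fold changes of −0.29, −0.28 and −0.46 (edgeR adjusted p = 1.59e-05, 1.06e-05 and 4.68e-08). They lie 879637, 427005 and 174910 bases from those clusters. CBX5 stood at 266 ± 10.8 CPM with BARD1 siRNA and 366 ± 40.3 CPM with control siRNA (SD, n = 3 each). The genes for subunit c of mitochondrial ATP synthase, ATP5MC1 beside HOXB, ATP5MC2 beside HOXC and ATP5MC3 beside HOXD, also fell, by 0.43, 0.25 and 0.23 on the log2 scale. Their distances are 163587, 261357 and 908284 bases. The other such families did not all move this way. SNX11 beside HOXB and CALCOCO2 beside HOXB rose by 0.29 and 0.18 on the log2 scale (edgeR adjusted p = 0.0123 and 0.0186). Their copies SNX10 beside HOXA and CALCOCO1 beside HOXC had log2 fold changes of −0.23 and 0.30 and did not pass. TAX1BP1, also a neighbour of HOXA, rose by 0.37 on the log2 scale (edgeR adjusted p = 9.13e-07). SKAP2 beside HOXA fell by 0.31, and SKAP1 beside HOXB had too few counts to test, as had EVX1 and EVX2. HNRNPA1 and HNRNPA3, RNA-binding protein genes beside HOXC and HOXD, had log2 fold changes of −0.09 and −0.00 and did not pass (edgeR adjusted p = 0.0891 and 0.949). No member of these families was tested for a link to the HOX genes.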
